A study of Mus musculus with 8 samples.

Results

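Nuclear receptors are transcription factors, most of which are switched by a small fat-soluble ligand. The genes described here are 32 mouse nuclear receptors outside the axis of PPAR-gamma, a set that takes in the receptors for estrogen, progesterone, thyroid hormone, vitamin D and retinoic acid, the bile acid and xenobiotic sensors, and the orphan receptors. They were chosen by exact symbol from the deposited table of 31854 gene rows; 31 of the 32 had a row, each symbol on 1 row, and Nr1i3 had none. Another 17 nuclear receptor genes complete the family of 49 and serve here only as a reference. The samples were epididymal white adipose tissue of mice given a high-fat diet, with 4 libraries from wild-type animals (WT, replicates 1, 2, 3 and 5) and 4 from animals carrying the S273A knock-in (replicates 2, 3, 4 and 6). In the knock-in, serine 273 of PPAR-gamma is replaced by alanine. The labels give genotype, tissue and diet for each library, without age, diet duration, allele copy number or the number of animals per library, so the spread between libraries may be partly technical.

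A typical nuclear receptor has a zinc finger domain that reads a short DNA element, often built on the half-site AGGTCA, and a ligand-binding domain that recruits coactivators or corepressors. Several of them bind DNA as partners of retinoid X receptors, as PPAR-gamma does. In fat, thyroid hormone receptors and the estrogen-related receptors are known for their part in energy use, the estrogen receptor alpha for limiting fat mass, and the NR4A receptors for rapid induction by cyclic AMP and other signals.

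Library totals ran from 14880239 to 18194889 counts, and all 8 were used. The tissue label was checked against markers: the adipocyte genes Adipoq and Plin1 were at 522 to 808 and 467 to 770 CPM (counts scaled to library size with TMM), the macrophage gene Csf1r was at 639 to 821 CPM, and the epididymis and testis markers (11 of 14 with a row, Lcn8 and Defb21 at 0) summed to 0.55 to 2.17 CPM. In whole tissue, fewer cells of a type and less RNA per cell cannot be told apart. In S273A replicate 2, Esr1 was 1.41-fold above the next library. Of 13807 rows whose log2 CPM averaged 1 or more, 76, Esr1 included, were at least as far above every other library there, against 3 to 21 rows for each of the other 7 libraries. By other measures WT replicate 2 was as far apart: it was the highest library for 16.5% and the lowest for 20.0% of tested rows, against 15.2% and 16.3% for S273A replicate 2. Among the 76 rows were Cyp2e1 (352 CPM, other libraries at most 76.0) and the adipsin gene Cfd (497 CPM, others at most 205), both named after their values were seen. The adipocyte marker score of S273A replicate 2, the mean of log2(CPM + 0.1) over 12 markers around the 8-library mean, was the highest at 0.35, and that of WT replicate 2 was the lowest at -0.38. Of these markers, Cfd, Adrb3, Retn and Slc2a4 were themselves among the 76 rows. By summed CPM of the 12 markers, S273A replicate 2 was at 8070, below WT replicate 3 (8581) and S273A replicate 4 (8416).

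Of the 32 receptors, 22 had enough counts to be tested (edgeR's filter, near 10 reads in 4 or more libraries), 8 were at trace level, 1 had no count in any library and 1 had no row. Nr0b1, which encodes DAX-1, a receptor without the usual DNA-binding domain, had 0 counts in all 8 libraries. A count of 0 allows up to 3 counts per library, or 0.167 to 0.205 CPM, an upper limit for counting error only. The related corepressor gene Nr0b2 (SHP) had 6 counts in all 8 libraries together. The liver and gut regulators Hnf4a and Hnf4g had 4 and 1, and Nr2e3, the photoreceptor-specific receptor, had 4. For these 5 receptors no library held more than 3 counts, so they were not detectable above the limit of this depth.

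Estrogen receptor beta, Esr2, was in the same position, with 11 counts in all and 0 to 3 per library. The progesterone receptor gene Pgr, a classical estrogen target, had 24 counts in all and 0 to 8 per library. Esrrb, the estrogen-related receptor of stem cells and the inner ear, had 29 in all and 1 to 7 per library. Nr1i2, which encodes the xenobiotic sensor PXR, had 23 in all and 0 to 6 per library. No fold change is given for the 9 receptors at trace level or without counts. Nr1i3, which encodes the sensor CAR, was not analysed here.

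Nr1h4, which encodes the bile acid receptor FXR, is also known mainly from liver and gut, but it was measured in every library here, with 40 to 79 counts. Its level per length was 1.16 ± 0.17 RPKM for WT against 1.21 ± 0.25 RPKM for S273A (SD, n = 4 each). RPKM here means CPM per kilobase of the deposited row length. Hepatocyte and gut markers were low in the same libraries: the 9 genes of that list summed to 1.48 to 3.57 CPM, with the bile acid enzyme gene Cyp7a1 at 0 counts.

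Among the 22 measured receptors, the level per length spanned from 20.1 ± 1.34 RPKM for Thra to 0.06 ± 0.04 RPKM for Rorb (SD over 8 libraries). Thra, thyroid hormone receptor alpha, was above every other member in all 8 libraries. Nr2f6, an orphan receptor of the COUP family, came second with 15.5 ± 0.97 RPKM, above the third-ranked gene in all 8. Rora (10.8 ± 1.06), Esrra (10.6 ± 0.65) and Nr2c2 (9.98 ± 0.42 RPKM) followed and were close to each other: Rora exceeded Esrra in 4 of 8 libraries and Esrra exceeded Nr2c2 in 6 of 8. These 3 neighbours did not differ beyond their spread.

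A further plateau held Rarg (8.41 ± 0.61), Thrb (7.87 ± 1.19), Rara (7.65 ± 0.71) and Esr1 (7.58 ± 1.85 RPKM), where each gene exceeded the next in only 4 or 5 of 8 libraries. Nr2f2 (4.99 ± 0.37), Rxrg (4.18 ± 0.95), Nr2c1 (4.01 ± 0.18), Nr4a1 (3.74 ± 0.73) and Nr2f1 (2.64 ± 0.31 RPKM) came next. Nr2f1 was above Nr1h4 in all 8 libraries, 2.22-fold in the mean, the widest step between neighbours apart from the last. Nr1h4, Nr6a1, Nr4a3, Vdr, Nr4a2, Nr5a2 and Esrrg lay between 1.19 and 0.47 RPKM. Rorb was 7.59-fold below Esrrg. The split into measured and trace rests on counts, so row length enters it. Rorb has a row of 11063 bases, while Nr1i2, at trace level, has 2527 bases and was at 0.07 RPKM. Against the whole family, the members held 29.4% to 31.99% of the summed RPKM of the 48 receptor genes with a row, and Thra ranked sixth.

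**Figure D1:**
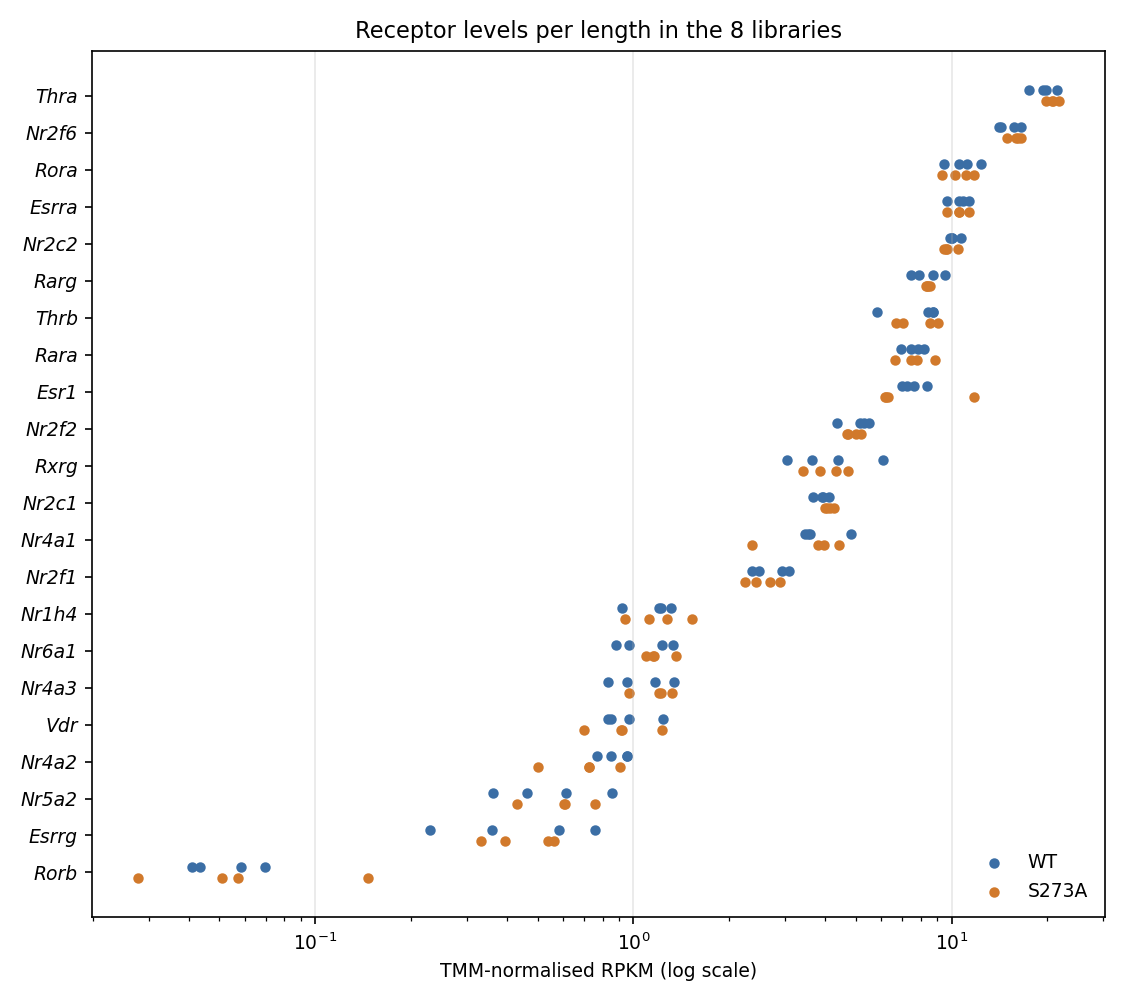
Level of each of the 22 measured receptors in TMM-normalised RPKM on a logarithmic axis, 1 point per library, with WT in blue and S273A in orange. Thra is the highest at 17.5 to 21.7 RPKM and Rorb the lowest at 0.03 to 0.15 RPKM; for most receptors the points of both genotypes lie over each other.

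The counts carry no strand, so exon bases shared with a gene on the other strand limit some of these levels. In GENCODE M21, Nr2f6 shares 1622 exon bases (54.4% of its exon union) with Ocel1, and Nr2c2 shares 4590 bases (30.7%) with Mrps25. Thra shares 263 bases (5.70%) with the clock repressor gene Nr1d1, and Nr2f2 shares 643 bases (7.46%) with the transcript B130024G19Rik. Mrps25 had no row under that symbol. The labels do not say how reads in such bases were counted. Ocel1 was at 15.3 ± 0.64 CPM for WT against 14.8 ± 1.52 for S273A, while Nr2f6 was at 34.6 ± 2.66 and 36.3 ± 1.57 CPM (SD, n = 4 each). The deposited row lengths also differ from the exon unions of GENCODE. With the union as the length, Thra and Nr2f6 stayed first and second at 13.1 and 11.9 RPKM, Rora and Esrra traded places, and Nr2c1 went from rank 12 to rank 9. Nr2f1 was then below Nr1h4, at 1.26 against 1.54 RPKM, so the order of those 2 rests on the length used. Nr2f2 and Nr6a1 were at 2.82 and 0.67 RPKM by that length.

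The promoters of the measured receptors had a higher median count of CpG dinucleotides than those of the receptors at trace level or without counts. In the RefSeq table (GRCm38.p6), 46 windows belonged to 30 of the 32 receptors. Thra and Hnf4g had no window, and Nr1i3, which has no row, was left aside. For each gene the window with the most CpGs in the 250 bases before a start site was taken. Over the 21 measured receptors the count ran from 1 to 44 with a median of 18, and 12 of the 21 had 18 or more. Over the 8 others it ran from 2 to 12 with a median of 4, and 0 had 18 or more. Across all 32851 windows the median was 6, and 21.7% had 18 or more. The cut of 18 is the median of the measured group itself and lies above the maximum of the others. The shares at that cut therefore follow from where it was set and are a description only. That background counts every window, not each gene's richest one. The grouping of the receptors rests on counts, so row length enters it too. Measured receptors had up to 4 windows each and the others up to 2, so taking the richest can favour the measured group. The Nr2f2 window and the richest Nr2f1 window had all 250 bases in annotated exon. The groups overlapped: measured Nr2f2 (1), Nr1h4 (5), Nr5a2 (6) and Esr1, Nr6a1 and Rxrg (7 each) had fewer CpGs than Esr2 (12) and Nr0b1 (11).

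The Nr2f6 and Nr0b2 promoters are a CpG-rich and a CpG-poor example and are printed 5′ to 3′ with each CpG in capitals. The Nr2f6 stretch is chr8:71381961-71382202 on the minus strand and holds 41 CpGs in the 242 bases before the first annotated exon base. The Nr0b2 stretch is chr4:133553126-133553375 on the plus strand and holds 3 in 250 bases.
Nr2f6: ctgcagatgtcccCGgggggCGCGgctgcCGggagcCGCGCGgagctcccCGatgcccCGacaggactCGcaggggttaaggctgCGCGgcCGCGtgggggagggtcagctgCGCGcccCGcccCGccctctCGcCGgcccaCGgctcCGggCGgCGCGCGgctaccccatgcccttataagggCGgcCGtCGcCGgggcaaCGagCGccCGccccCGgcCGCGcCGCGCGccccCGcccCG
Nr0b2: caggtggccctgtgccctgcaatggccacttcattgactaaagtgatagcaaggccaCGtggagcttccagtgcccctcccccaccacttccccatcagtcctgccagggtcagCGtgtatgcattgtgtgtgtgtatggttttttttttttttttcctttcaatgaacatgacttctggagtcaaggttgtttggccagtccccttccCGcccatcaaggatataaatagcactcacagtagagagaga

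**Figure D2:**
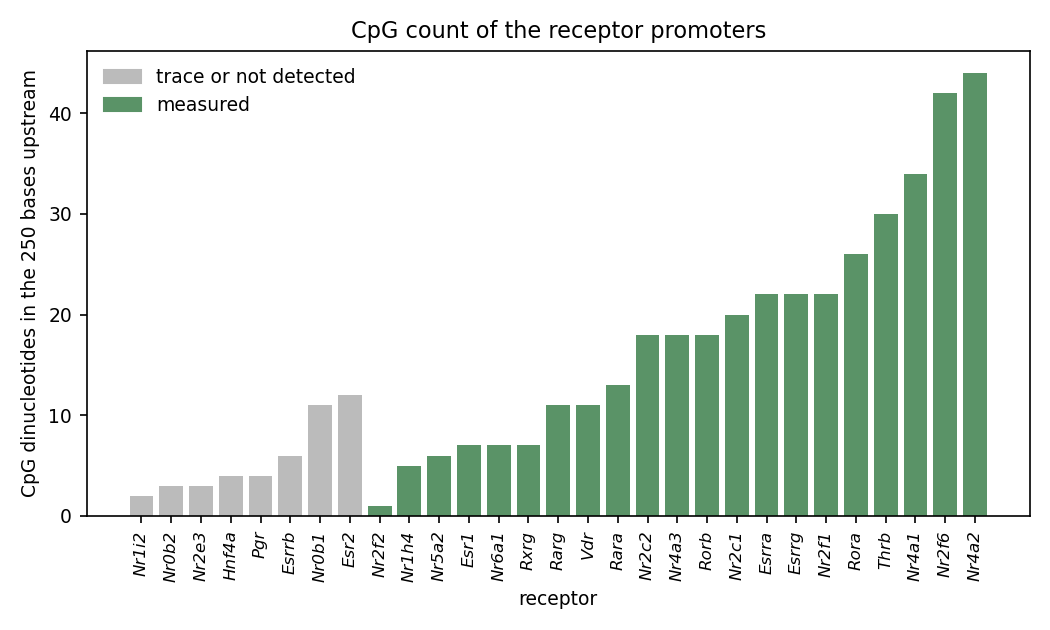
Number of CpG dinucleotides in the 250 bases upstream of the RefSeq start for 29 receptors, using each gene's richest window. Grey bars are the 8 receptors at trace level or not detected (2 to 12 CpGs), and green bars are the 21 measured receptors (1 to 44).

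The comparison of genotypes asked whether any of these receptors differs in transcript level when serine 273 of PPAR-gamma is replaced. None of the 22 measured receptors was called by edgeR's quasi-likelihood test, fitted over all 15667 tested rows. The background was the same, with 0 rows (0%) called at an adjusted p under 0.05. DESeq2 and limma-voom also called 0 of the 22, and over all rows DESeq2 called 1. At an unadjusted p under 0.05 the count was 0 of 22 receptors, against 229 rows or 1.46% of all rows. The 4 libraries of each genotype overlapped for all 22 receptors, where 1.19% of all rows did not overlap. Differences are given as the log2 ratio of S273A over WT. It was above 0 for 10 receptors and below 0 for 12, and its median was -0.003, against 0.001 over all rows.

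The data bound most of these differences to within 1.5-fold. For 18 of 22 receptors (81.8%) the 95% confidence interval lay within a 1.5-fold difference in either direction, and for 21 it lay within 2-fold. The share within 1.5-fold was 79.1% over all tested rows and 88.7% over rows whose log2 CPM averaged 1 or more. The median half-width of the log2 interval was 0.33 for the receptors, wider than the 0.24 over all tested rows. The exceptions at 1.5-fold were the low or variable genes Rorb (-0.65 to 1.48 on the log2 scale), Esrrg (-0.83 to 0.70), Nr5a2 (-0.53 to 0.69) and Nr4a2 (-0.73 to 0.12). The smallest unadjusted p was that of Nr4a2 at 0.139, and the edgeR adjusted p was 1.00 for every receptor.

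**Figure D3:**
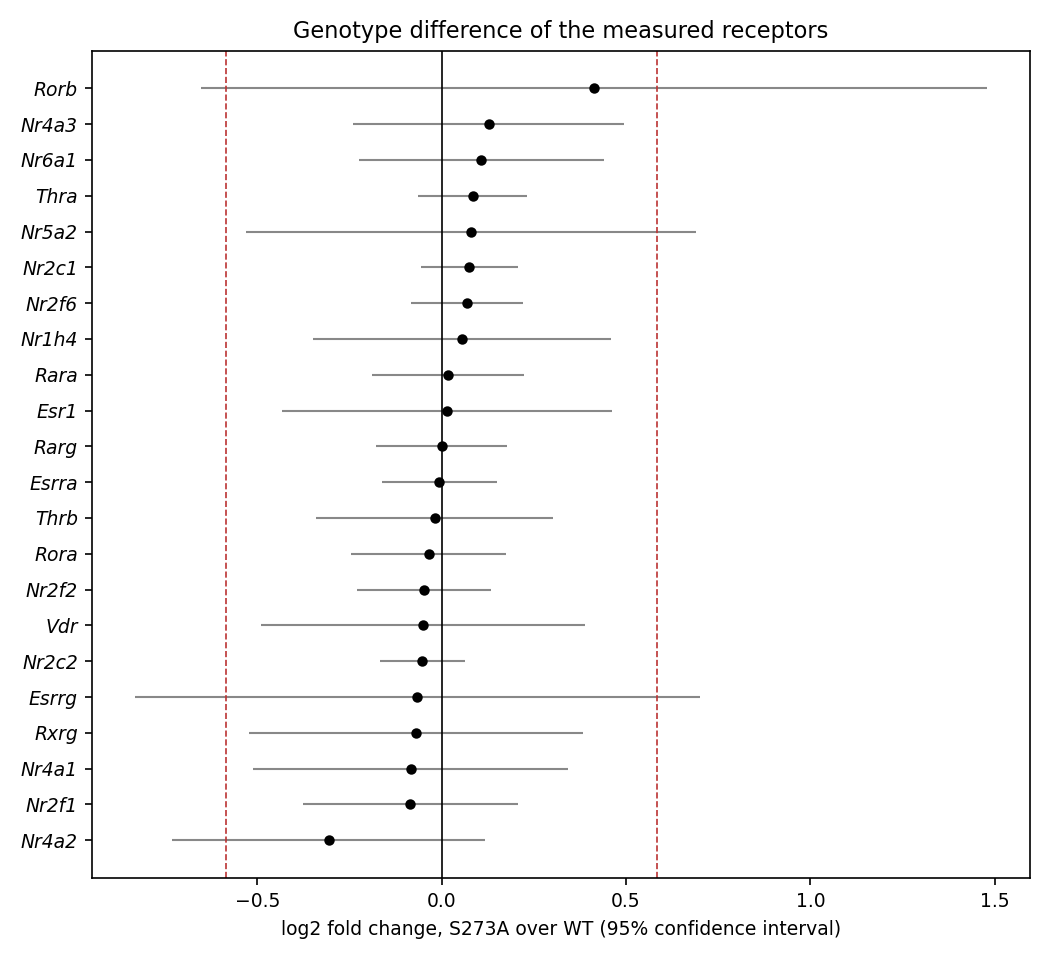
Log2 fold change of S273A over WT with its 95% interval for the 22 measured receptors, in order of the estimate. Dashed lines mark a 1.5-fold difference; every interval includes 0, and 4 of them (Rorb, Esrrg, Nr5a2 and Nr4a2) reach past a dashed line.

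Esr1, estrogen receptor alpha, was the 1 steroid receptor of the set that was measured. The gene lies on the plus strand of chromosome 10, from 4611593 to 5005614 (GRCm38), in a row of 9546 bases. Its counts were 1226, 1169, 1166 and 1177 in WT replicates 1, 2, 3 and 5, and 2011, 1049, 1050 and 965 in S273A replicates 2, 3, 4 and 6. In normalised CPM these were 72.8, 66.5, 79.8 and 69.1 for WT against 112, 59.0, 60.3 and 59.4 for S273A. S273A replicate 2 was thus above all 7 other libraries, while the other 3 knock-in libraries were below all 4 WT libraries.

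With all 8 libraries, Esr1 was at 72.0 ± 5.77 CPM for WT against 72.7 ± 26.3 CPM for S273A (SD, n = 4 each), a log2 ratio of 0.01 (SE 0.20, 95% interval -0.43 to 0.46). An exact two-sided permutation test of log2 CPM gave p = 0.943. Without S273A replicate 2, as one of the 8 fits that each left out 1 library, the knock-in mean was 59.6 ± 0.68 CPM (SD, n = 3). The log2 ratio was then -0.27 (SE 0.07) with an edgeR unadjusted p of 0.00347 and an adjusted p of 0.999, so it was not called there either. In that fit 7 of 15783 rows had a p this small or smaller. The library left out was the one that stood apart for Esr1, so this p and its rank describe a selected fit. Without that library the genotypes of Esr1 did not overlap, and neither did those of 3.36% of all rows.

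The Esr1 estimate thus turned on S273A replicate 2. The genes most like Esr1 over the 8 libraries, by Pearson correlation of log2 CPM among the same 13807 rows, were L3mbtl3 (0.967), a chromatin reader, Lrrc27 (0.964) and Prkrir (0.963). Rxra, the retinoid X receptor that partners PPAR-gamma, had a correlation of 0.961, with 270 CPM in S273A replicate 2 and 204 to 233 CPM elsewhere. These values were ranked after the Esr1 pattern was seen, come from shared libraries and are a description. Of 12 estrogen target genes, 9 were tested, 5 with positive and 4 with negative estimates and a median of 0.03. The smallest p was that of the chemokine gene Cxcl12, at 216 ± 12.2 CPM for WT against 247 ± 30.2 for S273A (log2 ratio 0.19, SE 0.09), which did not pass. By library, the targets were mixed. The tested target Stc2 was highest in S273A replicate 2, at 17.6 CPM with at most 12.5 elsewhere. Greb1, which had too few counts to be tested, had 20 counts there and 2 to 8 elsewhere. Cxcl12, Nrip1 and the untested Pgr were highest in other libraries. A link of these values to Esr1 was not tested. Aromatase, Cyp19a1, which makes estrogen in fat of many species, did not have enough counts to be tested.

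**Figure D4:**
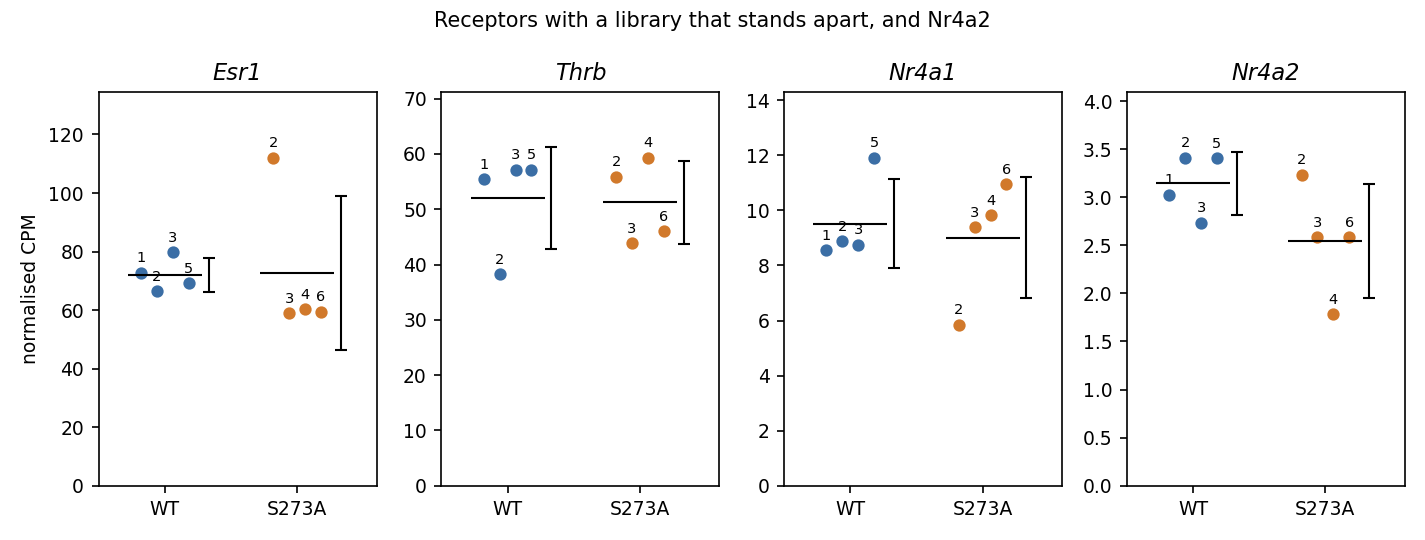
Normalised CPM of Esr1, Thrb, Nr4a1 and Nr4a2 in each library, labelled with its replicate number, with the mean as a line and the SD (n = 4) as a bar, on axes that start at 0. Esr1 in S273A replicate 2 is at 112 CPM with the other knock-in libraries near 60, Thrb in WT replicate 2 is at 38.2 CPM, and Nr4a1 is highest in WT replicate 5 (11.9) and lowest in S273A replicate 2 (5.85).

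Both thyroid hormone receptors were measured, with the row of the alpha gene higher per length. Thra (plus strand of chromosome 11, 98740638 to 98769006) was at 19.4, 17.5, 19.7 and 21.5 RPKM for WT against 21.7, 19.7, 20.6 and 20.8 RPKM for S273A. The ranges overlapped, and the log2 ratio was 0.08 (SE 0.07, 95% interval -0.06 to 0.23). The overlapping gene Nr1d1 was at 62.3 ± 12.7 CPM for WT against 75.9 ± 10.1 CPM for S273A; its part in the Thra value was not tested.

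Thrb (plus strand of chromosome 14, 17660261 to 18038090) was at 8.46, 5.83, 8.71 and 8.72 RPKM for WT against 8.52, 6.68, 9.05 and 7.02 RPKM for S273A. WT replicate 2 was the lowest of all 8, followed by S273A replicate 3. The log2 ratio was -0.02 (SE 0.14, 95% interval -0.34 to 0.30). The ratio of Thra to Thrb per length was 2.27 to 3.01 over the 8 libraries, above 1 in every one, with means of 2.51 ± 0.34 for WT against 2.68 ± 0.33 for S273A (SD, n = 4 each). The ratio was highest in WT replicate 2, where Thrb was lowest. With the GENCODE lengths the means of Thra and Thrb were closer, at 13.1 and 6.97 RPKM.

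Genes that thyroid hormone is known to regulate showed no genotype call. Of 11 listed, 10 were tested, 5 with positive and 5 with negative estimates and a median log2 ratio of 0.03. Hr, a corepressor that thyroid hormone induces, had the smallest p, at 69.2 ± 9.87 CPM for WT against 62.1 ± 9.27 for S273A (-0.15, SE 0.12). The calcium pump gene Atp2a1 was at 20.2 ± 1.87 and 23.0 ± 5.66 CPM, and the uncoupling protein gene Ucp1 at 0.60 ± 0.44 and 0.33 ± 0.24 CPM. Dio2, the deiodinase that makes active hormone, was among the 76 rows that S273A replicate 2 led, 1.75-fold above the next library.

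Vdr, the vitamin D receptor, was a low-level member at 53 to 91 counts. It was at 4.23 ± 0.82 CPM for WT against 4.10 ± 0.95 CPM for S273A (log2 ratio -0.05, SE 0.20). Beside it, Cyp24a1, which inactivates vitamin D and is a classical Vdr target, was at 2.55, 2.27, 2.60 and 2.64 CPM for WT against 1.95, 1.52, 1.26 and 1.78 CPM for S273A. All 4 knock-in libraries lay below all 4 WT libraries (log2 ratio -0.62, SE 0.18, edgeR unadjusted p 0.00561), but the adjusted p was 1.00 and the gene was not called. Of 10 vitamin D targets 5 were tested, all with negative estimates and a median of -0.13. The others with the smallest p were Cd14, a lipopolysaccharide co-receptor, at 32.5 ± 3.41 and 29.1 ± 5.94 CPM, and Spp1, osteopontin, at 107 ± 36.1 and 98.0 ± 35.3 CPM. Both are macrophage genes too, and 10 of 12 macrophage markers had negative estimates, with summed levels of 4328 to 5168 CPM for WT against 4049 to 4613 for S273A. Their part in the list was not tested.

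The retinoic acid receptors Rara and Rarg were at nearly equal levels, and Rxrg, the least widespread retinoid X receptor, was lower. Rara was at 6.93, 7.83, 8.20 and 7.47 RPKM for WT against 7.79, 7.46, 6.63 and 8.89 RPKM for S273A (log2 ratio 0.02, SE 0.09). Rarg was at 7.89, 9.54, 8.74 and 7.46 RPKM in WT and at 8.31, 8.34, 8.55 and 8.42 RPKM for S273A (log2 ratio -0.00015, SE 0.08). The knock-in libraries of Rarg lay inside the WT range, with an SD of 1.27% of the mean against 11.0% in WT. At 465 to 507 counts, counting error alone is larger than that knock-in spread, and the difference in spread was not tested. Rxrg was at 10.1 ± 3.12 CPM for WT against 9.63 ± 1.34 CPM for S273A (-0.07, SE 0.20), with WT replicate 3 the highest at 14.4 CPM and WT replicate 2 the lowest at 7.17. Of 10 retinoic acid targets 7 were tested, 6 with positive estimates (median 0.08) and none at an unadjusted p under 0.05. The smallest p-values belonged to Cyp26c1, a retinoic acid hydroxylase (1.23 ± 0.24 and 1.66 ± 0.44 CPM), and to Rarb, the retinoic acid-induced receptor (8.07 ± 0.57 and 8.84 ± 1.04 CPM).

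Of the RORs, which activate clock genes through the elements that REV-ERB receptors repress, Rora was abundant and Rorb close to the floor. Rora was at 11.1, 9.47, 10.5 and 12.4 RPKM for WT against 11.1, 9.36, 11.7 and 10.2 RPKM for S273A (log2 ratio -0.04, SE 0.09). The lowest values were in WT replicate 2 and S273A replicate 3, the same 2 libraries that were lowest for Thrb. Rorb had 5 to 29 counts per library, and the 29 belonged to S273A replicate 2. Its log2 ratio was 0.41 (SE 0.48) with all libraries and -0.22 without that one. Of 10 ROR target genes 9 were tested, 6 with positive estimates and a median of 0.03. Nr1d1 led them by p, followed by the clock output factor Nfil3 at 15.2 ± 1.16 and 17.1 ± 2.39 CPM (0.17, SE 0.11).

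Esrra, the estrogen-related receptor that drives genes of mitochondrial metabolism together with PGC-1 coactivators, was among the steadiest members. It was at 9.64, 10.8, 11.3 and 10.5 RPKM for WT against 10.5, 11.4, 9.67 and 10.6 RPKM for S273A. The log2 ratio was -0.01 (SE 0.07, 95% interval -0.16 to 0.15). Esrrg, its relative of oxidative tissues, was 15.0 to 47.3 times lower per length and varied widely, at 3.32, 1.31, 4.31 and 2.05 CPM for WT against 3.07, 2.25, 1.90 and 3.20 CPM for S273A (-0.07, SE 0.34). Of 18 listed targets of these receptors 17 were tested, 10 with positive estimates, a median of 0.01 and none at an unadjusted p under 0.05. The mitochondrial RNA-binding gene Lrpprc was at 90.3 ± 2.13 CPM for WT against 86.1 ± 2.71 for S273A (-0.07, SE 0.05).

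Of 12 FXR targets 6 were tested (median 0.02), of 14 PXR and CAR targets 7 (median 0.08), and of 12 HNF4A targets 4 (median 0.09), with none called. Over all genes, 15667 of 31854 rows were tested, so the first 2 lists were near the background in this. Cyp3a11, a main PXR target of the liver, had 1 count in all libraries, and Cyp7a1 had 0. Nr1h4 itself had a log2 ratio of 0.06 (SE 0.18, 95% interval -0.35 to 0.46). The FXR target with the smallest p, the proteoglycan gene Sdc1, was at 82.5 ± 14.3 CPM for WT against 76.0 ± 10.4 for S273A.

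The testicular orphan receptors, repressors that recognise repeats of the common half-site, were the least variable members. Nr2c2 was at 10.7, 10.1, 9.85 and 10.1 RPKM for WT against 9.60, 10.5, 9.68 and 9.44 RPKM for S273A (log2 ratio -0.05, SE 0.05). Nr2c1 was at 3.91 ± 0.19 RPKM for WT against 4.12 ± 0.12 RPKM for S273A (0.07, SE 0.06). The genotypes of Nr2c1 did not overlap without WT replicate 1, nor those of Nr2c2 without S273A replicate 3, where 3.27% and 3.35% of all rows did not overlap, and neither gene was called in those fits. The highest library was only 1.13 times the lowest for Nr2c2 and 1.17 times for Nr2c1. By the deposited lengths the ratio of Nr2c2 to Nr2c1 was 2.60 ± 0.10 for WT against 2.38 ± 0.16 for S273A. With the GENCODE lengths the means of the 2 genes were closer, at 9.45 and 5.81 RPKM. Mrps25 had no row under that symbol, so its level cannot be set beside that of Nr2c2. The part of the exon bases that Nr2c2 shares with Mrps25 was not tested.

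The COUP family holds Nr2f1, Nr2f2 and Nr2f6, of which Nr2f2 is known for venous and lymphatic endothelium and for fat cell precursors. Nr2f6 was at 14.1, 14.3, 15.7 and 16.5 RPKM for WT against 15.96, 14.9, 16.1 and 16.5 RPKM for S273A (log2 ratio 0.07, SE 0.07). Nr2f2 was at 5.48, 4.36, 5.16 and 5.29 RPKM for WT against 4.68, 4.73, 5.001 and 5.19 RPKM for S273A (-0.05, SE 0.08). Nr2f1 was at 2.71 ± 0.35 RPKM for WT against 2.56 ± 0.28 RPKM for S273A (-0.08, SE 0.13). The order Nr2f6, Nr2f2, Nr2f1 held in all 8 libraries. By the deposited lengths Nr2f6 exceeded Nr2f2 by 2.56 to 3.41 times, and Nr2f2 exceeded Nr2f1 by 1.71 to 2.08 times. With the GENCODE lengths the means were further apart in ratio, at 11.9, 2.82 and 1.26 RPKM, so the size of these ratios rests on the length used. Lymphatic endothelial markers summed to 73.1 to 134 CPM for WT against 68.0 to 118 for S273A, and blood endothelial markers to 977 to 1357 and 1159 to 1432 CPM.

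The NR4A receptors are immediate early genes, and their promoters share a sequence feature. The 5-letter core of the cyclic AMP response element, TGACG read on either strand, occurred 4 times within 250 bases before the start of Nr4a1, of Nr4a2 and of Nr4a3. Of all 32851 windows, 17.8% held at least 1 such core and 0.137% held 4 or more. None of the other receptors' windows held more than 2. The core contains a CpG, and the Nr4a1, Nr4a2 and Nr4a3 windows hold 34, 44 and 18 CpGs, against a median of 6 over all windows. These shares were not matched for CpG content, so they do not give the rarity among CpG-rich promoters. The full palindrome TGACGTCA, which contains the core on both strands, was in none of the 46 receptor windows and in 1.55% of all. The bases of each window that come before annotated exon sequence within it are given 5′ to 3′ with the cores in capitals, to show their spacing. They are chr15:101266596-101266845 (plus strand) for Nr4a1, chr2:57124004-57124253 (minus strand) for Nr4a2 and chr4:48045055-48045152 (plus strand) for Nr4a3, whose remaining core lies in annotated exon and is not shown. The Nr4a1 window belongs to a RefSeq start inside the GENCODE gene, which spans 101254269 to 101274795 on chromosome 15. A match of letters does not show that a factor binds there.
Nr4a1: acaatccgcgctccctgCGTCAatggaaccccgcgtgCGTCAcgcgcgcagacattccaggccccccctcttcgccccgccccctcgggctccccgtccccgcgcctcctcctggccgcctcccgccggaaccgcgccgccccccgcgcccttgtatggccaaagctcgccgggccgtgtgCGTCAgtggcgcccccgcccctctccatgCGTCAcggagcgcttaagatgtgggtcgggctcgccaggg
Nr4a2: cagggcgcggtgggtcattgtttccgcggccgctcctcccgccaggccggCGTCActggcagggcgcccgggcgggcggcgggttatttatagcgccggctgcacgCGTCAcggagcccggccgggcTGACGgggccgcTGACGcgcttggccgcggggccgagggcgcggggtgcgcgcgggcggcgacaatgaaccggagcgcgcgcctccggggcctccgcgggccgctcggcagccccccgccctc
Nr4a3: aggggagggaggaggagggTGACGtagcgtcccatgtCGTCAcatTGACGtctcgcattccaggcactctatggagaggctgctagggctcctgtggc

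The 3 NR4A genes did not share one pattern over the libraries. Nr4a1 was at 8.54, 8.87, 8.76 and 11.9 CPM for WT against 5.85, 9.39, 9.82 and 11.0 CPM for S273A (log2 ratio -0.08, SE 0.19). Nr4a2 was at 3.03, 3.41, 2.74 and 3.41 CPM for WT against 3.23, 2.59, 1.78 and 2.58 CPM for S273A (-0.31, SE 0.19). Nr4a3 was at 7.83, 5.57, 4.86 and 6.81 CPM for WT against 5.63, 7.03, 7.12 and 7.69 CPM for S273A (0.13, SE 0.16). S273A replicate 2 was the lowest library for Nr4a1, the lowest knock-in library for Nr4a3, and the highest knock-in library for Nr4a2.

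Without S273A replicate 2 the Nr4a2 estimate was -0.44 (SE 0.19, edgeR unadjusted p 0.0409, adjusted p 0.999), and its genotypes did not overlap. With Esr1 it made 2 of 22 receptors at an unadjusted p under 0.05 in that fit, against 2.07% of all rows. Among the fits without 1 library, that fit had the highest such count. By the deposited lengths, Nr4a1 exceeded Nr4a3 by 2.45 to 4.24 times and Nr4a2 by 2.61 to 7.94 times. With the GENCODE lengths the means of Nr4a1, Nr4a3 and Nr4a2 were 2.64, 1.10 and 0.70 RPKM. Nr4a2 had 31 to 60 counts per library.

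Other genes that respond within minutes to many signals were measured in the same libraries. Of 18 immediate early genes, all tested, 7 had positive and 11 negative estimates, with a median of -0.04 and none at an unadjusted p under 0.05. Fos was at 52.8, 64.0, 62.0 and 76.6 CPM for WT against 45.1, 56.1, 56.2 and 64.2 CPM for S273A (log2 ratio -0.21, SE 0.13). Within each genotype Fos and Nr4a1 had the same highest library, WT replicate 5 and S273A replicate 6, and in S273A both were lowest in replicate 2. The list did not share this: Fosb was highest of all libraries in S273A replicate 2, at 3.90 CPM with at most 2.71 elsewhere. Egr1 was at 36.6, 22.7, 20.7 and 36.8 CPM for WT against 24.8, 27.4, 33.3 and 27.6 for S273A. Of 12 NR4A target genes 11 were tested, 9 with positive estimates (median 0.03). Fasl, a death ligand of lymphocytes, had the smallest p, at 2.53 ± 0.56 and 1.59 ± 0.71 CPM (-0.67, SE 0.31), and 8 of 9 tested T and NK cell markers also had negative estimates. Those markers summed to 48.0 to 109 CPM for WT against 51.5 to 114 for S273A, and their part in the Fasl value was not tested.

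The last 2 measured members were low. Nr5a2, known as LRH-1 from liver, gut and ovary, was at 2.79, 1.65, 3.90 and 2.11 CPM for WT against 3.46, 1.97, 2.76 and 2.77 CPM for S273A (log2 ratio 0.08, SE 0.27). Nr6a1, the germ cell nuclear factor, was at 7.01 ± 1.37 and 7.57 ± 0.72 CPM (0.11, SE 0.15). Neither differed by more than the spread between libraries.

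Several receptors had their extreme values in the same libraries, as many other rows did. WT replicate 2 was the lowest of the 8 libraries for 7 of 22 receptors (Nr5a2, Rxrg, Esrrg, Nr2f2, Nr2c1, Thra and Thrb), where it was the lowest for 20.0% of all tested rows. WT replicate 3 was the highest for 3 of 22 receptors, close to its share of 12.4% of all rows. These were Nr5a2, Rxrg and Esrrg, which were among the more variable members. Their biological coefficients of variation were 0.24, 0.19 and 0.31, against a median of 0.14 over the 22 receptors and 0.10 over all rows. In WT replicate 2 the summed adipocyte markers were at 5590 CPM, the lowest of all libraries, and the blood endothelial and mural scores were lowest too (-0.36 and -0.35). The part of cell composition in these receptor values was not tested.

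**Figure D5:**
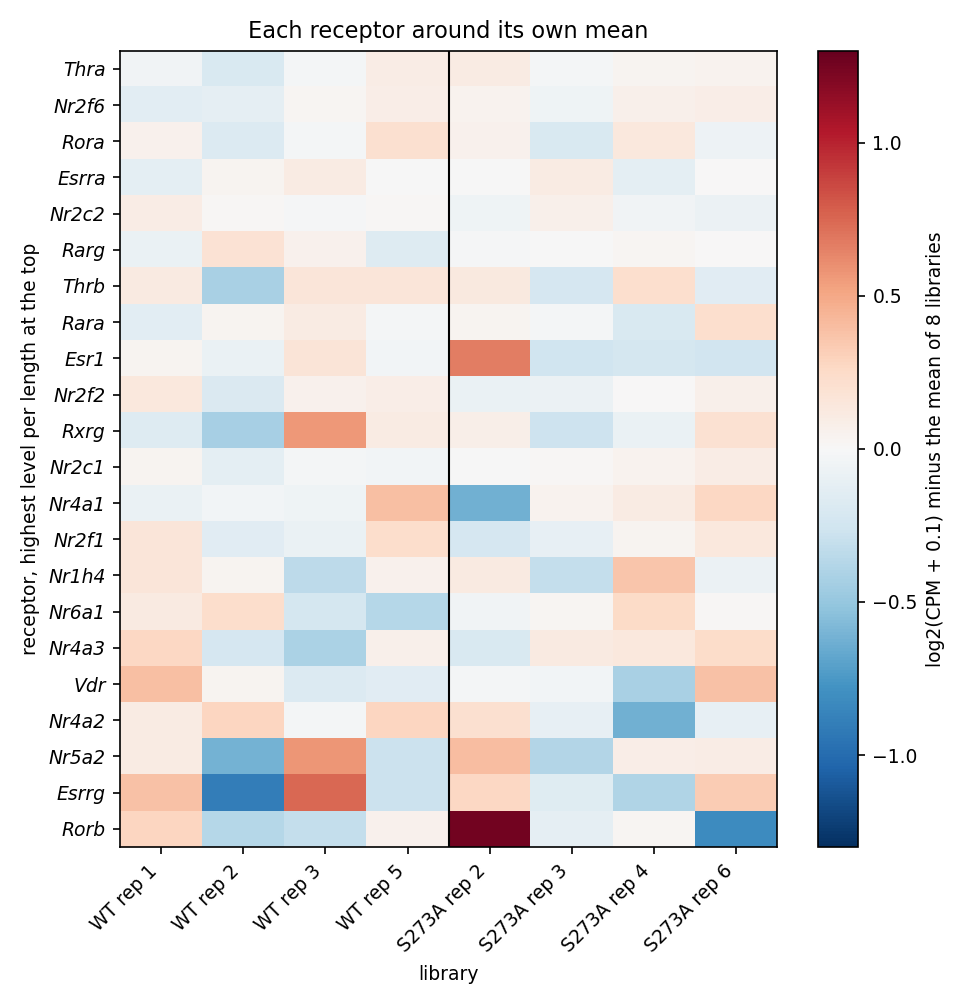
Log2(CPM + 0.1) of each measured receptor minus its mean over the 8 libraries, receptors ordered by level per length and libraries by genotype. Red is above and blue below the mean; Esr1 and Rorb are high in S273A replicate 2, where Nr4a1 is low, and Nr5a2, Rxrg and Esrrg are low in WT replicate 2 and high in WT replicate 3.

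Genes that act with the receptors gave no call. All 20 coregulator genes were tested, 11 with positive and 9 with negative estimates and a median log2 ratio of 0.03. The smallest p belonged to the PGC-1-related coactivator gene Pprc1 (57.8 ± 2.95 CPM for WT against 62.1 ± 2.83 for S273A, 0.10, SE 0.06), and the next to the steroid receptor coactivator gene Ncoa1 (115 ± 5.06 and 109 ± 2.97 CPM, -0.08, SE 0.05). Of 20 genes of ligand synthesis, breakdown and transport 13 were tested, 6 with positive and 7 with negative estimates (median -0.01). Beside Cyp24a1, the smallest p-values were those of Crym, which binds thyroid hormone (1.21 ± 0.37 and 1.73 ± 0.43 CPM), and the transporter gene Slc16a10 (134 ± 9.56 and 123 ± 11.6 CPM). Of the 17 other nuclear receptors 14 were tested, 10 with positive estimates and a median of 0.04, and 1 had an unadjusted p under 0.05, the clock repressor Nr1d2 (76.0 ± 7.71 and 86.2 ± 4.41 CPM), which was not called.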

How the data were processed

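Ribosomal RNA-depleted total RNA was sequenced without strand information as paired reads of 36 bases, per the labels' protocols. Read counts were deposited in a single table, 1 row per gene model, as raw whole numbers. Its length column (another quantity, in bases, deposited by the authors) was used only for RPKM. The submitters' processing notes list, without roles, edgeR 3.3.0, featureCounts 1.5.2, Picard 2.9.2, HISAT2 2.0.5, bcl2fastq 2.20.0 and the build mm10. How duplicates and ambiguous reads were handled is not stated there.

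The raw counts went into edgeR 4.0.16 (R 4.3.3) (filterByExpr defaults, TMM, glmQLFit with the robust option, glmQLFTest, genotype as the only term), with Benjamini-Hochberg adjustment over 15667 rows and a threshold of 0.05. Alternatives used limma 3.58.1, DESeq2 1.42.0, other scalings and filters, summed rows, a term for the replicate number, and each library left out. On simulated counts with 200 of 15667 genes changed, 9, 36, 44 and 50 of 50 changed genes were recovered at 1.25-fold, 1.5-fold, 2-fold and 4-fold, with 13 false calls. The changed genes were drawn from rows with a mean log2 CPM of 1 or more. Recovery of lower genes, or with fewer genes changed, was not simulated. Named genes were all receptors, and up to 3 tested members of each list with the smallest p (1 such gene is not reported here); per-library values were given for the 10 highest per length, the NR4A genes and others the text turns on. Members and lists were chosen with earlier results of these data known. Positions come from GENCODE M21 (GRCm38) and promoter sequences from RefSeq (GRCm38.p6), matched by symbol.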

Additional observations from a re-analysis of the deposited data

Results flagged for a closer look

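Within groups of 4 libraries, 3 of 44 receptor values in the 22 measured receptors had their extreme library set apart from the others by a gap that exceeds Dixon's 95% limit, where chance flags about 1 in 20. Esr1 in S273A replicate 2 was at 112 CPM, with the other knock-in libraries at 59.0 to 60.3 CPM. Thrb in WT replicate 2 was at 38.2 CPM, with the nearest other WT library at 55.4. Nr4a1 in WT replicate 5 was at 11.9 CPM, with the nearest other WT library at 8.87.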

How the results depend on the processing

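No receptor was called at an adjusted p under 0.05 in any of the 16 alternative fits. Over all rows, DESeq2 called 1 row, as did the fit without S273A replicate 4, so the fits without 1 library called 0 to 1. Receptors at an unadjusted p under 0.05 numbered 0 to 2 in those fits, and receptors with genotypes that did not overlap 0 to 2, a count added after seeing the data, where 2.50% to 3.36% of all rows did not overlap. The 2 were Esr1 and Nr4a2 without S273A replicate 2. Signs of near-zero estimates were not stable: 16 of 175 values reversed outside the fits without 1 library, and 35 of 176 in them. With the replicate number as a block, the reversed log2 fold changes were 0.0822 (Thrb), 0.0330 (Vdr), -0.0711 (Rara), 0.0323 (Rora), 0.0850 (Esrrg), 0.0102 (Nr2c2) and -0.0170 (Nr6a1); the replicate block called no row, rests on the 2 numbers that both genotypes share, and the residuals of same-numbered libraries correlated at -0.0986 and -0.276, so the numbers were not treated as pairs. limma-voom gave -0.0395 (Esr1), 0.0535 (Esrrg) and 0.00633 (Rarg). Rarg was 0.00180 with RLE scaling, 0.00506 with upper-quartile scaling, 0.00130 without a filter, 0.00258 with summed rows and 0.00167 in DESeq2, and Esrra was 0.000205 with upper-quartile scaling. Without 1 library the estimates ran from -0.190 to 0.0759 for Nr4a1, -0.0971 to 0.0325 for Rora, -0.142 to 0.0573 for Thrb, -0.22 to 0.67 for Rorb, -0.0548 to 0.0670 for Rarg, -0.0486 to 0.0332 for Esrra, -0.27 to 0.11 for Esr1, -0.0907 to 0.332 for Nr5a2, -0.0710 to 0.168 for Nr1h4, -0.0599 to 0.0813 for Rara, -0.30 to 0.23 for Esrrg, -0.202 to 0.0887 for Vdr and -0.20 to 0.15 for Rxrg. The cause of these reversals was not tested. The remaining 7 receptors kept their sign throughout. A filter of 1 CPM in 4 libraries left 21 of the 22 receptors, without Rorb.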
